A study of Mus musculus with 4 samples.

Results

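The cell cycle genes described here are 60 mouse genes taken by symbol from a given list, out of 32285 genes in the count tables. Of these, 26 act in S phase, when DNA is copied, and 34 act in G2 and mitosis (G2/M), when the copied chromosomes are packed and pulled apart. All 60 were found. They were counted mainly in the C1q cells, which are cells whose summed C1qa, C1qb and C1qc counts reached 10 UMIs per 10000. A UMI (unique molecular identifier) tags 1 captured mRNA molecule, and C1qa, C1qb and C1qc are complement genes that mark tissue macrophages. C1q cells were 13935 of the 17312 cells kept, and the members were also counted in endothelial-like and fibroblast-like cells.

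Passage through the cell cycle is driven by waves of transcription. E2F factors, released from the retinoblastoma protein, turn on genes for the replicative helicase, nucleotide supply and origin licensing, and a later wave, bound by the MuvB complex with B-Myb and FoxM1, turns on genes of the spindle, the kinetochore and the mitotic kinases. In the heart, resident macrophages are known to renew by dividing in place, while macrophages that derive from circulating monocytes can join or replace them.

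The series asked how a drug that damages DNA alters the resident macrophages of the heart. Adult mice had carboplatin, a platinum drug that forms crosslinks in DNA, by intraperitoneal injection on 2 days of each week for 2 weeks (45 mg/kg), and controls had PBS in equal volume. All then rested for 4 weeks, and an osmotic minipump under the skin next released either saline or angiotensin II (1.5 mg/kg/d) plus PE (50 mg/kg/d), here AngII/PE, until the hearts were taken on day 7. The 4 groups are PBS + saline, then carboplatin + saline, then PBS + AngII/PE, and last carboplatin + AngII/PE, and values given as a series of 4 follow this order. Each group is 1 library made from 5 pooled mice of mixed sex, sorted as CD64+ cells that were CD45+, CD11b+, Ly6G negative and Ly6C low. With 1 library a group no difference could be tested, each comparison is between libraries, and a fold says nothing of the spread between mice. All intervals are 95% and cover counting error only. For a list they also take each UMI as independent, although many members' UMIs lay in few cells.

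The filters kept 4310, 3484, 3849 and 5669 cells, of which 3251, 2399, 3157 and 5128 were C1q cells with median depths of 11860, 13016, 12769 and 12698.5 UMIs. The C1q genes chose these cells, so the label was checked on the other 5 macrophage markers, Cd68, Adgre1, Csf1r, Fcgr1 and Mertk. All were detected in each library, and their summed level was 2056 to 2984 CPM in C1q cells, against 112 to 172 CPM in endothelial-like cells. CPM is the UMIs of a gene per 1000000 UMIs of that cell class in that library. Summed endothelial markers were 62.3 to 98.2 CPM in C1q cells, and the median over single C1q cells was 0 for every other marker list except cardiomyocyte markers in carboplatin + saline (0.378 UMIs per 10000). Cells between 5 and 20 C1q UMIs per 10000, near the limit of the class, numbered 540, 540, 356 and 297. Between 9 and 17 cell barcodes were shared by any pair of libraries, at most 0.250% of the smaller one.

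Before the levels, the stretch around each gene's start shows what the lists share in sequence. RefSeq promoters (GRCm38.p6, the build of the counts, 250 bases before the start to 50 after it) were matched by symbol for 21 S and 28 G2/M members and searched on both strands. The cell cycle homology region, the element bound by MuvB, was written as TTNGAA with T or C at N. It was found in 22 of 28 G2/M promoters (78.6%) and 5 of 21 S promoters (23.8%), against 19.2% of all 32851 promoters of that length. An E2F core, written as TTNNCGC with C or G at each N, was found in 13 of 21 S promoters (61.9%) and 5 of 28 G2/M promoters (17.9%), against 9.57% of all. The CCAAT box, bound by NF-Y, was found in 66.7% of S and 78.6% of G2/M promoters against 37.4% of all, and its reverse can overlap an E2F core. These matches are descriptions of letters and not of bound sites.

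The promoters of 4 members that the results turn on are printed 5′ to 3′ on the gene's strand, with every match to the 3 motifs in capitals. Mcm6 (helicase subunit, chr1:128359656-128359955, minus strand) holds the most E2F cores of the 49 members searched, 5 over both strands, some of which overlap. Pclaf (a PCNA-binding factor, chr9:65890073-65890372, plus strand) had the highest S ratios. Top2a (topoisomerase that untangles chromosomes, chr11:99024140-99024439, minus strand) holds the most cell cycle homology regions of the 49 members searched, 4, beside 6 CCAAT boxes. Kif23 (a kinesin of the central spindle, chr9:61946750-61947049, minus strand) holds 1 cell cycle homology region and 1 CCAAT box and is shown because its level went its own way.
Mcm6: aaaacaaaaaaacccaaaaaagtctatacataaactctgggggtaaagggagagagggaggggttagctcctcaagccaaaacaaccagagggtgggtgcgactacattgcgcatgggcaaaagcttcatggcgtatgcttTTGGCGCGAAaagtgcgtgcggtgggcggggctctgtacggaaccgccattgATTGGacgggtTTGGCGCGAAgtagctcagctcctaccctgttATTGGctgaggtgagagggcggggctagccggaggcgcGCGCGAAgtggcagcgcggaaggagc
Pclaf: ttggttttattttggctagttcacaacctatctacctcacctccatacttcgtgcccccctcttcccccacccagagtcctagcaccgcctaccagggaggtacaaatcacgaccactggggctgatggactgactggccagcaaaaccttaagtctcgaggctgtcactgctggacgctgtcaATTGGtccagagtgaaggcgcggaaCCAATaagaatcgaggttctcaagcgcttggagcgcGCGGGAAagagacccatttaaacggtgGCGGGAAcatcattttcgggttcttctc
Top2a: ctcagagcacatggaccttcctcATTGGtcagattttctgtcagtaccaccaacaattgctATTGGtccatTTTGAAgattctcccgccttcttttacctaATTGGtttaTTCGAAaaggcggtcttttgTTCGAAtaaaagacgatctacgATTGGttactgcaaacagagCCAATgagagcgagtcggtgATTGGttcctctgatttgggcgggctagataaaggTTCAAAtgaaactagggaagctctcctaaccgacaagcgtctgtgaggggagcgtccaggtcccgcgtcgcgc
Kif23: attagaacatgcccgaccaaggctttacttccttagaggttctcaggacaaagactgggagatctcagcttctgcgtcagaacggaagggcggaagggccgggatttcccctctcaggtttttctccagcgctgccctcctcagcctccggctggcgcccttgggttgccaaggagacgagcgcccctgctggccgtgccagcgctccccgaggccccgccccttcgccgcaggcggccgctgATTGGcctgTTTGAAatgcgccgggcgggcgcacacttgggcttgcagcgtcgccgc

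After carboplatin and a saline pump, C1q cells held more mRNA of the mitotic genes than after PBS. Summed over the G2/M list the level was 354 CPM in PBS + saline and 533 CPM in carboplatin + saline, 1.51-fold higher (1.47 to 1.54). Summed over the S list it was 325 and 380 CPM, 1.17-fold higher (1.14 to 1.20). Levels below a mean of 5 CPM over the 4 libraries rest on few UMIs, so members were counted among the 10175 genes at or above it, which include 16 S and 22 G2/M members. Of these, 16 of 22 G2/M and 5 of 16 S members were at least 1.5-fold higher, where 2.7% of all genes were, and 0 were at least 1.5-fold lower, where 2.74% of all genes were. The median log2 ratio was 0.74 for G2/M and 0.26 for S members, against -0.02 for all genes. Of the 38 members counted, 36 were higher by any amount, against 4688 of the 10175 genes. Counting all 60 members, 58 were higher and 41 at least 1.5-fold higher, but no share of all genes was taken without the 5 CPM limit. The members not higher were Slbp and Kif23. The G2/M result was not alike in the sexes, a difference that was not tested: in female-called cells 0 of the 22 G2/M members passed 1.5-fold and the summed ratio was 1.05, and in male-called cells 21 of 22 passed and the ratio was 2.36. The folds below are over both sexes together, and the values by sex are given further on. In the same comparison Ccr2, a receptor of monocyte-derived cells, was higher by a log2 ratio of 1.04, Timd4, a marker of long-lived resident macrophages, was lower (-3.97), and summed monocyte markers were 7.77 CPM after PBS and 27.1 CPM after carboplatin. Fibroblast (28.4 and 58.8 CPM), mural (10.8 and 24.3 CPM) and B cell markers (46.4 and 67.2 CPM) were higher too, and C1q cells with 10 or more UMIs per 10000 of another class's markers were 8.49% and 12.7%. Without those cells the summed G2/M ratio was 1.50 and the S ratio 1.17. Whether the Ccr2 and Timd4 differences have a part in the result was not tested.

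**Figure D1:**
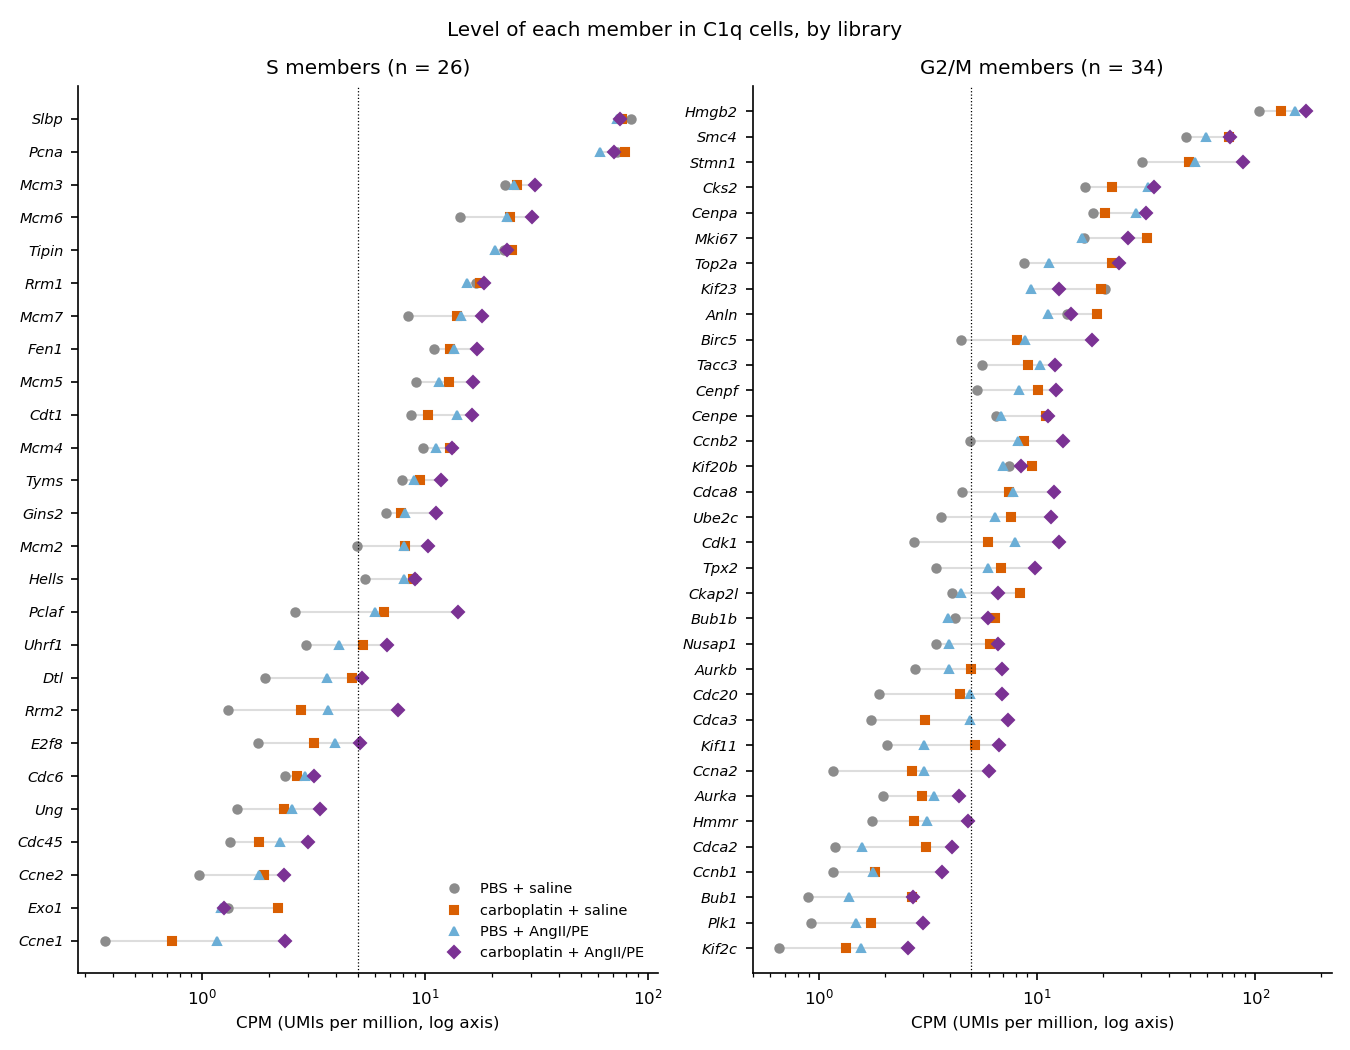
Level of each of the 60 members in C1q cells (CPM, log axis), one symbol per library, S members left and G2/M members right, ordered by mean; the dotted line marks 5 CPM. In most rows PBS + saline is the lowest of the 4 symbols, and Slbp, Kif23, Pcna and Mki67 are among those that break the order.

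Among genes of mitotic chromosomes, Top2a lay at 8.66, 22.0, 11.4 and 23.7 CPM. Both carboplatin libraries were above both PBS libraries, and the fold under saline, 2.54 (2.23 to 2.91), was the highest of the 22 G2/M members counted. Mki67, the proliferation marker that coats mitotic chromosomes, was at 16.4, 31.8, 16.0 and 26.2 CPM, also higher in both carboplatin libraries, 1.94-fold under saline (1.75 to 2.15). The condensin subunit Smc4 was at 47.9, 75.9, 59.6 and 76.5 CPM, 1.58-fold higher under saline (1.49 to 1.68). Hmgb2, a chromatin-bending protein with the highest count of the list, was at 104, 131, 153 and 170 CPM and only 1.26-fold higher (1.20 to 1.31). Cdca2, which targets a phosphatase to chromosomes, was under the 5 CPM mean, at 1.18, 3.10, 1.58 and 4.07 CPM.

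The kinases and cyclins that drive mitosis went the same way. Cdk1, the mitotic kinase, was at 2.73, 5.93, 7.88 and 12.5 CPM, lowest in PBS + saline and 2.17-fold higher after carboplatin under saline (1.70 to 2.80). Its cyclin partner Ccnb1 was under the 5 CPM mean at 1.15, 1.80, 1.78 and 3.68 CPM, from 44, 54, 71 and 239 UMIs, and Ccna2 was at 1.15, 2.67, 3.03 and 6.04 CPM. Ube2c, the ubiquitin-conjugating enzyme of the anaphase-promoting complex, was at 3.62, 7.60, 6.41 and 11.6 CPM, 2.10-fold higher under saline (1.69 to 2.61). PBS + saline was the lowest library for all 4 of these genes. Cks2, a small subunit of the cyclin-dependent kinases, had the lowest carboplatin ratio of this group, 1.32 under saline (1.18 to 1.48). Birc5 (survivin), which with Aurkb and Cdca8 forms the chromosomal passenger complex, was at 4.49, 8.07, 8.81 and 17.9 CPM, 1.80-fold higher (1.47 to 2.20). The spindle checkpoint kinase genes Bub1 and Bub1b were 2.99-fold (1.98 to 4.60) and 1.53-fold (1.24 to 1.90) higher, Bub1 from 34 and 80 UMIs. Cyclin B2 (Ccnb2) and the complex's activator Cdc20 were 1.76-fold and 2.35-fold higher, and the mitotic kinase genes Aurka, Aurkb and Plk1 1.51-fold, 1.81-fold and 1.89-fold. Cdca8 was 1.64-fold and Cdca3, which helps degrade a mitotic inhibitor, 1.77-fold higher.

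Of the kinetochore genes, Cenpe and Cenpf were 1.69-fold and 1.90-fold higher after carboplatin under saline, while Cenpa, the centromere histone, was at 18.0, 20.6, 28.5 and 31.6 CPM and 1.14-fold higher (1.02 to 1.28). Of 7 genes of the spindle and its kinesins at 5 CPM or more, 5 were at least 1.5-fold higher in this comparison, where 2.7% of all genes were. Counting all 10 without that limit, 8 were, and none was lower by that much. The microtubule destabiliser Stmn1 was at 30.1, 49.9, 53.2 and 87.8 CPM, with the 4 libraries in the same order as for Cdk1, and its fold under saline was 1.66 (1.53 to 1.79). Ckap2l, a spindle protein, was 2.06-fold higher (1.68 to 2.53) and the spindle motor Kif11 2.54-fold (1.92 to 3.38). The other spindle genes, Tpx2, Nusap1, Tacc3, Hmmr and Kif2c, were between 1.55-fold (Hmmr) and 2.03-fold (Kif2c) higher. Kif23 differed: it was at 20.4, 19.7, 9.38 and 12.5 CPM, so the saline libraries were alike within counting error (0.963-fold, 0.864 to 1.07) and the AngII/PE libraries were lower. Kif20b, also a kinesin of late mitosis, and Anln, an actin-binding protein of the cleavage furrow, were 1.28-fold (1.08 to 1.52) and 1.37-fold (1.22 to 1.55) higher after carboplatin under saline.

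Of the 5 S members past 1.5-fold, 3 were helicase subunits. Mcm2 to Mcm7 form the ring that unwinds DNA, and all 6 subunits were higher after carboplatin under saline. Mcm6 was at 14.4, 24.0, 23.3 and 30.3 CPM, 1.67-fold higher (1.50 to 1.87), and Mcm7 at 8.37, 14.0, 14.5 and 18.1 CPM, 1.67-fold higher (1.44 to 1.94). The ratios of Mcm2, Mcm3 and Mcm4 were 1.63, 1.14 and 1.32. Mcm5 was at 9.13, 12.9, 11.6 and 16.5 CPM, 1.41-fold higher (1.22 to 1.63). PBS + saline was lowest for each of these subunits. Pclaf, which binds the sliding clamp PCNA, was at 2.62, 6.60, 5.96 and 14.1 CPM and 2.51-fold higher (1.97 to 3.23). The clamp gene Pcna itself was at 72.9, 79.3, 61.2 and 70.6 CPM, and its 4 libraries kept no such order: 1.09-fold higher after carboplatin under saline (1.03 to 1.15). Hells, a chromatin remodeller of replicating DNA, was 1.65-fold higher (1.37 to 1.98).

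Other S members differed less or rested on fewer UMIs. Tyms, which makes thymidylate, was at 7.93, 9.53, 8.98 and 11.9 CPM and 1.20-fold higher (1.02 to 1.42). Rrm1 and Rrm2 encode the subunits of ribonucleotide reductase, and Rrm2 is the one whose protein is scarce outside S phase. Rrm1 was at 16.9, 17.7, 15.4 and 18.3 CPM (1.05-fold, 0.930 to 1.17), whereas Rrm2, under the 5 CPM mean, was at 1.31, 2.80, 3.68 and 7.60 CPM (2.13-fold, 1.49 to 3.09). Cdt1, which loads the helicase onto origins, was 1.19-fold higher and Gins2, a subunit of the GINS complex that helps fire them, 1.16-fold. Slbp, which binds the stem-loop of histone mRNA, was at 84.4, 76.4, 72.7 and 75.3 CPM and lower after carboplatin (0.906-fold, 0.858 to 0.956). Slbp, Pcna and Mcm3 together held 55.5% of the S list's UMIs in PBS + saline, so the sum of the list leans on them. The S regulators Ccne1 and Ccne2 (cyclin E), E2f8 (a repressor E2F) and Dtl (which marks Cdt1 for degradation) were under the 5 CPM mean. All 4 were at least 1.5-fold higher after carboplatin under saline, from 1.79-fold (E2f8) to 2.47-fold (Dtl). No share of all genes was taken at such levels. Uhrf1, which carries DNA methylation through replication, was 1.80-fold higher (1.41 to 2.32), also under that mean. Of the other genes of the fork and of repair, the flap nuclease Fen1 was 1.18-fold higher, the fork protector Tipin 1.08-fold, the uracil glycosylase Ung 1.62-fold and the exonuclease Exo1 1.68-fold, the last 2 under the mean. The origin factors Cdc6 and Cdc45, also under it, were 1.13-fold (0.825 to 1.54) and 1.34-fold (0.900 to 2.01) higher, with intervals that include 1.

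Under AngII/PE the carboplatin library was again higher in both lists. The summed G2/M level was 498 CPM after PBS and 676 CPM after carboplatin, 1.36-fold higher (1.33 to 1.38), and the S level 350 and 427 CPM, 1.22-fold higher (1.20 to 1.25). Of the members counted, 12 of 22 G2/M and 1 of 16 S members were at least 1.5-fold higher, where 0.983% of all genes were, and 0 were lower by that much, where 1.7% of all genes were. The medians were 0.62 and 0.32 on the log2 scale against -0.01 for all genes. All 38 members counted were higher by any amount, against 4921 of the 10175 genes, and without the 5 CPM limit 60 of 60 members were. In female-called cells 2 of the 22 G2/M members passed, where 2.48% of all genes did, and in male-called cells 13, where 0.943% did. The 1 S member was Pclaf, 2.36-fold higher (2.04 to 2.73), and Top2a (2.08-fold, 1.87 to 2.31) and Birc5 (2.03-fold, 1.80 to 2.30) led the G2/M list. Lowest were Slbp at 1.04-fold (0.988 to 1.08) in S and Cks2 at 1.06-fold (0.990 to 1.14) in G2/M. The carboplatin comparisons under saline and under AngII/PE share no library, and 13 members passed 1.5-fold in both. That is 61.9% of the 21 under saline and 100% of the 13 under AngII/PE. The same overlap over all genes was not counted, so these percentages have no background. For 46 of the 60 members the fold was larger under saline, a difference that was not tested. In the same comparison the log2 ratio was 0.03 for Ccr2, and summed monocyte markers were 10.5 and 17.9 CPM. Of 17 markers of macrophage subsets, 9 were higher and 8 lower. They ran from -3.32 for Timd4 to 0.96 for Folr2, which is also a resident marker. Their part in the result was not tested.

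**Figure D2:**
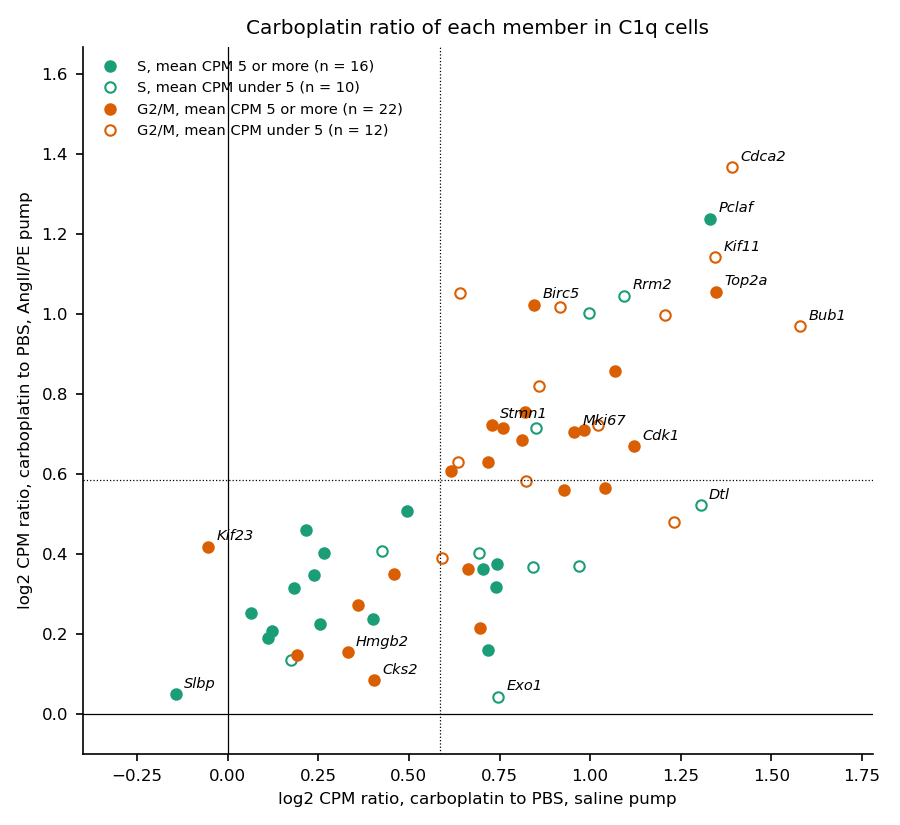
Log2 CPM ratio of carboplatin to PBS in C1q cells for each member, under the saline pump (horizontal) and under AngII/PE (vertical); filled points have a mean of 5 CPM or more, and dotted lines mark 1.5-fold. All 60 points lie above 0 on the vertical axis, Slbp and Kif23 lie left of 0 on the horizontal one, and the 13 filled points beyond both dotted lines include Pclaf, Top2a, Birc5 and Cdk1.

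The pump comparisons use the same 4 libraries as the carboplatin ones, so their values are not independent of them. After PBS, AngII/PE gave summed levels 1.08-fold (S) and 1.41-fold (G2/M) those of saline, and after carboplatin 1.13-fold and 1.27-fold. Here the background was wide: 9.25% of all genes were at least 1.5-fold higher and 9.59% lower after PBS, 9.38% and 9.73% after carboplatin. Against this, 5 of 16 S and 11 of 22 G2/M members were higher after PBS, and 2 of 16 and 8 of 22 after carboplatin. After PBS the G2/M count was 4 higher and 4 lower in female-called cells, where 9.58% and 10.7% of all genes were, and 19 and 1 in male-called cells, where 13.5% and 12.1% were. Over both sexes, only Kif23 was lower by 1.5-fold among members counted, 0.459-fold after PBS (0.405 to 0.520) and 0.637-fold after carboplatin (0.572 to 0.709). Cdk1 had the highest ratio after PBS, 2.89 (2.31 to 3.64), and Birc5 after carboplatin, 2.22 (1.93 to 2.56). Cks2 was at 16.6, 22.0, 32.3 and 34.3 CPM, 1.95-fold higher under AngII/PE after PBS (1.77 to 2.14), so that for this gene the pump ratio was larger than the carboplatin ratio. Mki67 was the reverse, at 0.978-fold (0.874 to 1.09) after PBS and 0.823-fold (0.760 to 0.892) after carboplatin. Pcna was lower under AngII/PE, 0.839-fold (0.795 to 0.887) and 0.891-fold (0.847 to 0.936), as was Anln, 0.811-fold (0.714 to 0.922) and 0.753-fold (0.677 to 0.837). Cdt1 was 1.61-fold (1.40 to 1.85) and 1.58-fold (1.39 to 1.80) higher. Timd4 was lower between pumps too (log2 ratios of -4.90 and -4.25), and summed neutrophil markers were 47.9, 35.5, 142 and 45.4 CPM. Their part in these differences was not tested.

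Cells were counted as well. Each cell was thinned to 4000 UMIs, which left out shallower cells, and a cell was counted when 5 or more members of a list were detected. Such a count grows with the number of cells that hold these mRNAs and with the mRNA in each, so it does not separate them. For the S list, 29 of 2684 cells (1.08%, 0.725 to 1.55), 50 of 1922 (2.60%, 1.94 to 3.42), 66 of 2771 (2.38%) and 187 of 4514 (4.14%) were counted. For the G2/M list it was 32 (1.19%, 0.817 to 1.68), 59 (3.07%, 2.34 to 3.94), 58 (2.09%) and 164 (3.63%). PBS + saline had the lowest share in both lists, and the intervals of the saline libraries do not overlap. The carboplatin to PBS ratio of shares was 2.41 (1.49 to 3.95) for S and 2.57 (1.65 to 4.09) for G2/M under saline, and 1.74 (1.31 to 2.34) and 1.74 (1.28 to 2.38) under AngII/PE. Between pumps it was 2.20 and 1.76 after PBS and 1.59 and 1.18 after carboplatin, the last with an interval of 0.874 to 1.62. Without thinning the shares were 12.9%, 16.6%, 16.8% and 19.0% for S and 7.32%, 14.1%, 14.2% and 18.1% for G2/M. The S ratios depended on the settings: for carboplatin under saline the ratio was 1.28 without thinning, 1.27 with 3 or more members and 5.12 with 8 or more, and for AngII/PE after PBS 1.30, 1.11 and 3.55. For carboplatin under AngII/PE it was 1.13 without thinning. Fibroblast-like cells of the same libraries had median depths of 16115 to 17878.5 UMIs. After thinning, 0 of 70, 0 of 64 and 0 of 102 reached 5 G2/M members in PBS + saline, carboplatin + saline and PBS + AngII/PE. The exact upper bounds, 5.13%, 5.60% and 3.55%, take in the C1q shares of those libraries, so these cells are too few for a contrast. The lists are read here as counts of detected genes and not as a call of cycle phase.

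**Figure D3:**
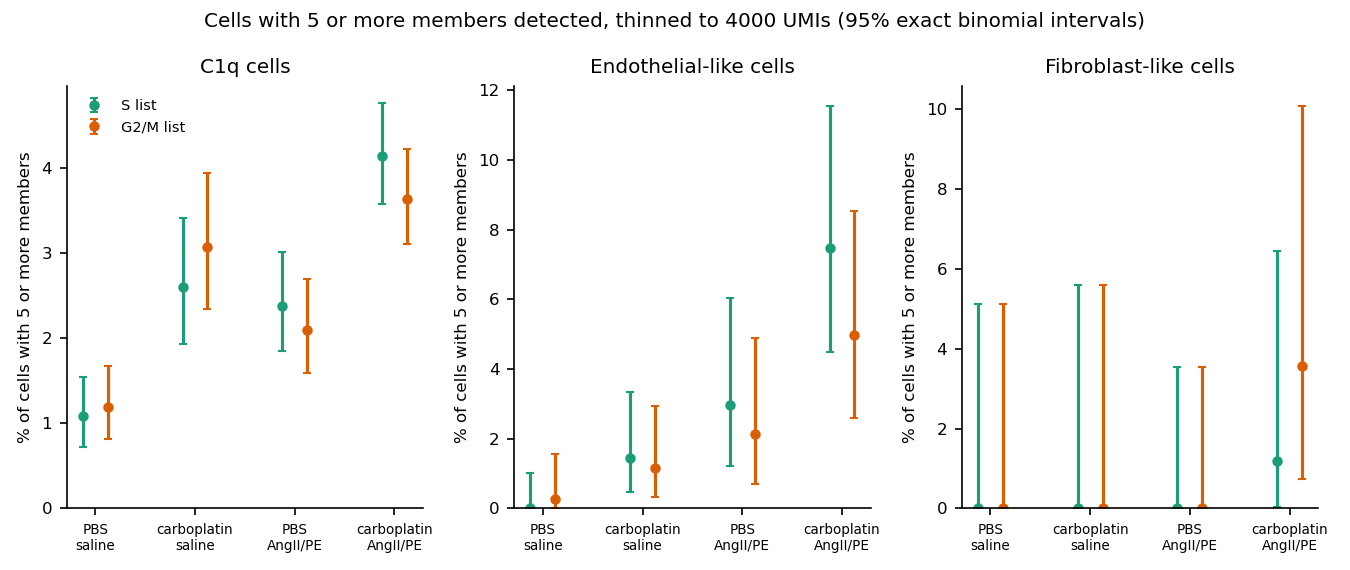
Share of cells with 5 or more members detected after thinning to 4000 UMIs (vertical, percent), by library, for C1q, endothelial-like and fibroblast-like cells; points are shares and bars exact binomial 95% intervals. In C1q and endothelial-like cells PBS + saline is lowest and carboplatin + AngII/PE highest for both lists, and fibroblast-like cells are at 0 outside carboplatin + AngII/PE.

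Most such cells passed in 1 list only. Of the 49, 87, 107 and 280 cells with 5 or more members of either list (1.83%, 4.53%, 3.86% and 6.20% of those thinned), 17, 28, 49 and 116 passed for S alone, 20, 37, 41 and 93 for G2/M alone and 12, 22, 17 and 71 for both. They were large: before thinning their median depths were 19673, 18378, 17635 and 17668 UMIs, against 13049 to 14852 in the remaining cells. These few cells held 30.3%, 45.7%, 36.9% and 52.4% of the G2/M list's UMIs and 11.9%, 24.4%, 23.6% and 35.9% of the S list's. In the remaining cells the summed G2/M level was 255, 310, 331 and 351 CPM and the S level 295, 306, 281 and 298 CPM. The split uses the members themselves, so lower levels and ratios in the remaining cells are built in and are given as a description. There the carboplatin medians under saline were 0.33 (G2/M) and 0.07 (S) on the log2 scale, with 5 of 22 and 2 of 16 members at least 1.5-fold higher, where 2.55% of all genes were. Under AngII/PE the medians were 0.17 and 0.10, with 3 of 22 and 1 of 16 members, where 0.826% of all genes were. Cells with markers of another class were 2.04%, 5.75%, 2.80% and 3.57% of these cells and 4.16% to 5.31% of the rest.

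Members differed widely in how far their UMIs lay in such cells. For each member, cells with 5 or more of the other members of either list, the member itself left out, were taken in each library. The share of its UMIs in them, averaged over the 4 libraries with equal weight, had a median of 34.2% over S and 66.6% over G2/M members. Among the highest were Hmmr (95%, 87.0% to 100% by library), Ccna2 (93.9%, 92.0% to 95.8%), Ccnb1 (90.0%, 79.1% to 96.3%) and Pclaf (87.6%, 82.0% to 91.8%), and the ranges of Hmmr, Ccna2 and Ccnb1 overlap. The lowest were Slbp (9.09%, 3.38% to 15.9%), Pcna (12.5%), Cdt1 (17.2%), Smc4 (17.4%) and Tipin (17.4%), so most of their UMIs lay in cells with fewer than 5 other members detected after thinning. Without thinning more cells reach 5 members: 12.9% to 19.0% of C1q cells did for the S list. Smc4 had 64.8 CPM in the remaining cells of carboplatin + saline against 42.7 CPM in those of PBS + saline, and Mcm6 18.3 against 12.1 CPM, while Pclaf had 0.584 against 0.500 CPM. Kif23 had 14.8%, 29.5%, 35.1% and 52.5% of its UMIs in such cells, and in the remaining cells it was at 18.0, 14.6, 6.28 and 6.42 CPM, lower in both AngII/PE libraries. Members with less than 20% in such cells (4 S and 1 G2/M) had lower carboplatin ratios than Pclaf and Ccna2 in both comparisons, as the plot of shares against ratios shows. This did not hold for Hmmr and Ccnb1, whose ratios under saline were slightly below that of Smc4. After PBS and carboplatin Hmmr was at 1.76 and 2.73 CPM, Ccnb1 at 1.15 and 1.80 CPM and Smc4 at 47.9 and 75.9 CPM. Both axes come from the same cells, so the pattern is a description.

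**Figure D4:**
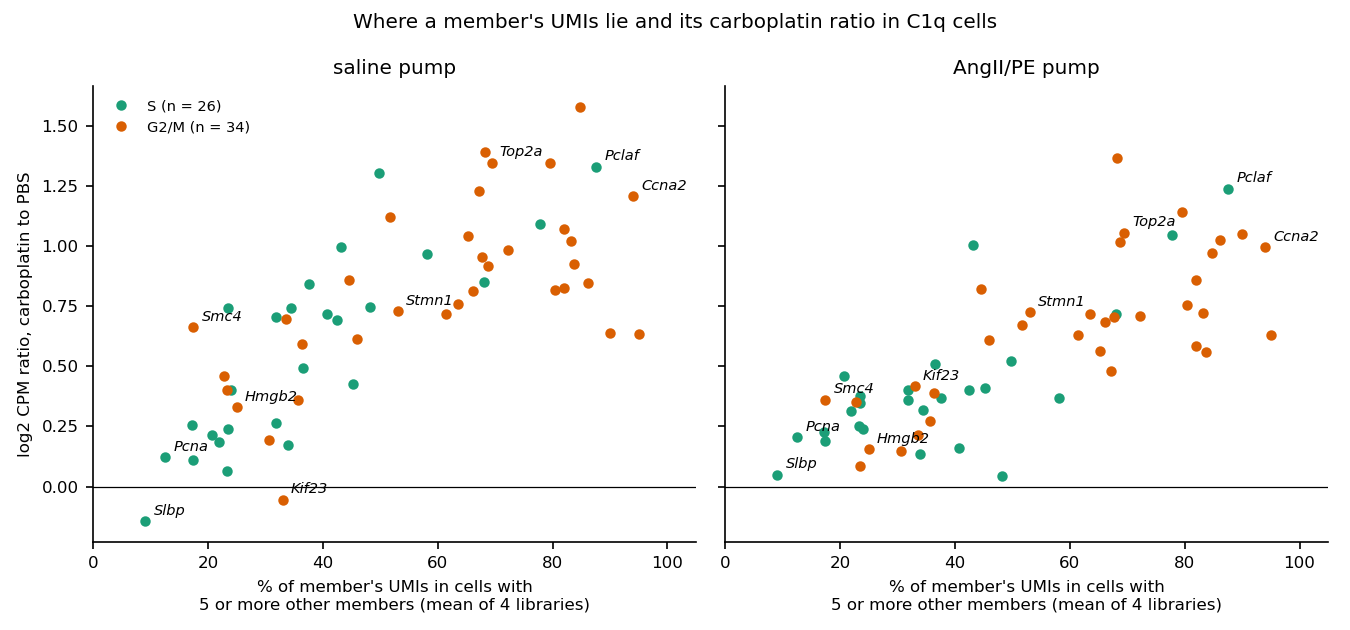
Share of each member's UMIs that lay in C1q cells with 5 or more other members (horizontal, percent, mean of the 4 libraries) against its log2 carboplatin to PBS ratio (vertical) under saline (left) and AngII/PE (right), S members green and G2/M members orange. Slbp and Pcna lie low and left, Pclaf and Ccna2 high and right, and Smc4 at 17.4% lies above its neighbours under saline. Hmmr and Ccnb1, not labelled, also lie far right but slightly below Smc4 under saline.

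The carboplatin difference under saline was not shared evenly by the sexes in the pools. Cells were called female or male from UMIs of Xist or of Y-linked genes, and female-called cells were 48.7%, 52.7%, 30.3% and 51.1% of those called. In male-called cells the summed G2/M level was 231 CPM after PBS and 546 CPM after carboplatin under saline, 2.36-fold higher (2.27 to 2.46). In female-called cells it was 456 and 478 CPM, 1.05-fold higher (1.01 to 1.09). Male-called cells of PBS + saline stood apart: 3 of 1088 (0.276%) had 5 or more G2/M members, against 19 of 1002 (1.90%) female-called cells of that library. After carboplatin the male and female shares were 27 of 813 (3.32%) and 24 of 824 (2.91%), a ratio to PBS of 12.0 (3.71 to 62.0) in male-called and 1.54 (0.806 to 2.97) in female-called cells. Among the 22 G2/M members, 21 were at least 1.5-fold higher in male-called cells, where 7.63% of all genes were, and 0 in female-called cells, where 2.35% were. Genes at least 1.5-fold lower were 7.20% and 2.88% of all, so male-called cells differed more between these libraries over all genes too. Top2a was at 3.45 and 21.4 CPM in male-called and 13.1 and 18.5 CPM in female-called cells. Cdk1 was at 1.42 and 6.14 CPM in male-called and 4.25 and 4.50 CPM in female-called cells. For S members the sexes were closer, with summed ratios of 1.19 and 1.13 in male- and female-called cells and share ratios of 3.18 (1.33 to 8.39) and 1.65 (0.841 to 3.28). Under AngII/PE the summed G2/M ratio was 1.43 in male-called and 1.18 in female-called cells, and the pump ratio after PBS was 2.08 and 1.11. The sources used here do not give how many mice of each sex a pool held, so 1 male or female animal cannot be told apart from its sex. The difference between the sexes was not tested.

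**Figure D5:**
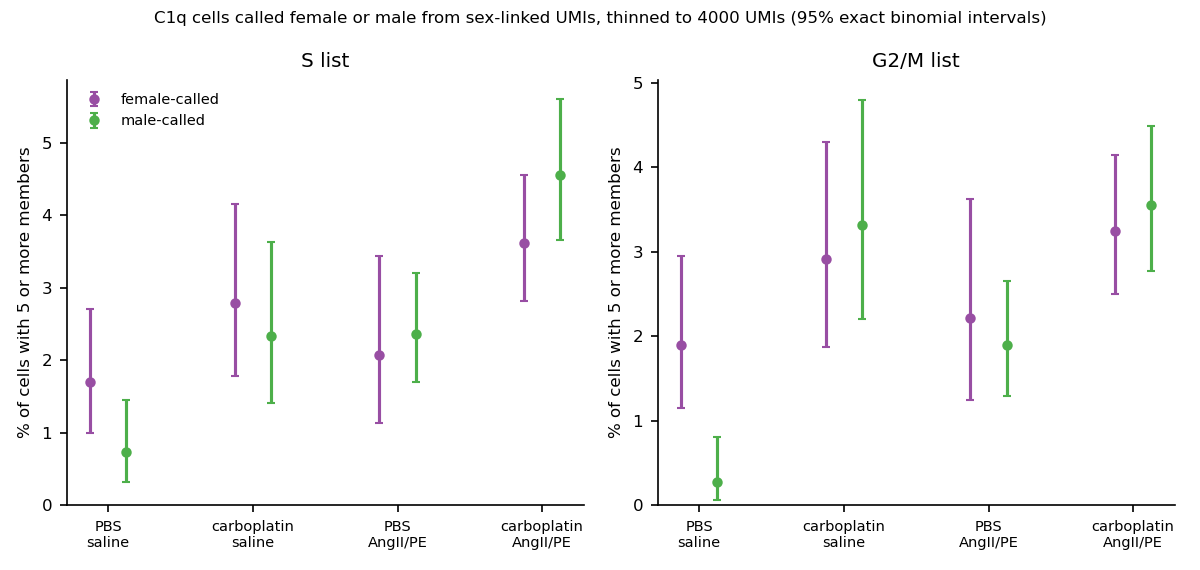
Share of C1q cells with 5 or more members after thinning to 4000 UMIs (vertical, percent), by library, in female-called and male-called cells, S list left and G2/M list right; bars are exact binomial 95% intervals. The male-called G2/M share of PBS + saline, 0.276%, is the lowest point, and its interval lies apart from that of the female-called cells.

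The cells with 5 or more G2/M members also differed from the remaining C1q cells of their own library in genes outside the lists. MHC class II genes, which present antigen, were lower in them in all 4 libraries: the ratio of H2-Aa was 0.813, 0.627, 0.508 and 0.593 and that of Cd74 0.900, 0.656, 0.575 and 0.651. The macrophage receptors Adgre1 (0.675, 0.793, 0.690 and 0.643) and Mertk (0.724, 0.570, 0.597 and 0.516) were lower as well, while Cd68 was between 0.932 and 1.14. Both results are on the CPM scale, on which the members' own mRNA takes a share. In cells with 5 or more members of either list, that share was 3889 to 4712 CPM for G2/M and 1617 to 2047 CPM for S members. The resident markers differed by library. In PBS + saline Timd4 (ratio 0.426, 0.272 to 0.634), Lyve1 (0.574), Folr2 (0.448, 0.356 to 0.558) and Cd163 (0.436) were lower in these cells, while Vsig4 was at 0.919 (0.604 to 1.34). In carboplatin + saline Lyve1 (0.327), Folr2 (0.564) and Cd163 (0.585) were lower, and the intervals of Timd4 and Vsig4 include 1. In PBS + AngII/PE the ratios of Lyve1 (1.34), Folr2 (1.12), Cd163 (1.27) and Vsig4 (1.32) were above 1 and that of Timd4 0.591, all with intervals that include 1. In carboplatin + AngII/PE Lyve1 (0.714) and Cd163 (0.705) were lower, Folr2 was at 0.933 (0.830 to 1.05), Vsig4 had 1 UMI in these cells and Timd4 had 0. Ccr2 was higher in PBS + saline (2.41, 2.10 to 2.76) and lower in carboplatin + saline (0.878, 0.783 to 0.982). Under AngII/PE its ratio was 1.12 (0.984 to 1.26) after PBS and 1.14 (1.06 to 1.23) after carboplatin. The monocyte markers Plac8 and Ly6c2 were also lower in carboplatin + saline. There Plac8 was at 0.322 (0.118 to 0.706), from 6 UMIs in these cells, and Ly6c2 had 0 UMIs (upper limit of the ratio 0.769). In the other 3 libraries the intervals of Plac8 and Ly6c2 include 1. Among genes of lipid-laden macrophages, Trem2 was at 0.770, 0.756, 0.732 and 0.610, and Spp1 at 2.54, 1.24, 1.15 and 0.629. Gpnmb had 0 UMIs in these cells in both saline libraries and ratios of 0.396 and 0.299 under AngII/PE, where 6 of 58 and 3 of 164 of these cells had a UMI. With 32, 59, 58 and 164 such cells, UMIs of 1 gene can lie in few of them, which the intervals do not cover. The share of cells with a UMI did not always go with the ratio. In carboplatin + AngII/PE Lyve1 was detected in 12.8% of these cells and 6.99% of the rest, and Spp1 in 59.1% and 51.1%. In carboplatin + saline it was 57.6% and 52.2% for Ccr2 and 6.78% and 5.18% for Plac8. For Lyve1, Folr2 and Cd163 in both saline libraries that share was lower as well. Such shares also rise with depth.

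Endothelial-like cells, chosen by their endothelial markers, numbered 473, 477, 269 and 257. They passed a sort meant for phagocytes. Their summed G2/M level was 250, 381, 488 and 1047 CPM, and their S level 295, 335, 481 and 587 CPM. Top2a was at 1.47, 16.8, 11.9 and 66.6 CPM, from 5, 64, 37 and 215 UMIs, and Cdk1 at 0.881, 4.45, 16.5 and 40.3 CPM. Carboplatin to PBS ratios of the summed G2/M level were 1.52 (1.40 to 1.66) with the saline pump and 2.14 (2.02 to 2.28) with AngII/PE. The pump ratio was 1.95 after PBS and 2.75 after carboplatin. These ratios differed by sex: in male-called cells the carboplatin ratios were 1.57 and 4.12 and the pump ratios 1.58 and 4.13, and in female-called cells 1.22 and 1.47, then 1.16 and 1.40. With sex called from 2 or more UMIs the female ratio for carboplatin under saline was 0.994. The summed G2/M level in male-called cells of carboplatin + AngII/PE was 1731 CPM, against 404 CPM in female-called ones. After thinning, 9 of 109 male-called and 1 of 104 female-called cells there had 5 or more G2/M members. For carboplatin under saline the intervals overlap (1.40 to 1.77 in male-called, 1.01 to 1.46 in female-called cells). The female pump ratio after PBS had an interval of 0.944 to 1.41. These differences by sex were not tested. Shares of cells with 5 or more members rested on few cells: for G2/M 1 of 357, 4 of 345, 5 of 235 and 12 of 241 (4.98%, 2.60 to 8.54), and for S 0, 5, 7 and 18 (7.47%, 4.49 to 11.5). The 0 of 357 allows a share of up to 0.840% at 3 counts, and the exact 95% upper bound drawn in the plot is 1.03%. Median depths were 6510, 7087, 10310 and 11122 UMIs, so the AngII/PE libraries were deeper.

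Fibroblast-like cells numbered 76, 70, 109 and 86. Their summed G2/M level was 133, 184, 179 and 484 CPM and their S level 260, 254, 223 and 269 CPM, so that the G2/M level was lowest in PBS + saline (113 to 156) and highest in carboplatin + AngII/PE, 2.71-fold above PBS + AngII/PE (2.37 to 3.09). By sex that fold was 1.996 (female-called) and 2.37 (male-called), and male-called cells had 1.20 with sex called from 2 or more UMIs. Mki67 had 0, 0, 0 and 18 UMIs in these cells, and the 18 UMIs are 11.8 CPM. After thinning, 3 of 84 cells (3.57%, 0.743 to 10.1) had 5 or more G2/M members in that library and 0 of 70, 64 and 102 in the others, which allows up to 4.29%, 4.69% and 2.94% at 3 counts, with exact upper bounds of 5.13%, 5.60% and 3.55%. The level in carboplatin + AngII/PE thus rests on a handful of cells.

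Genes of the cycle outside the 60 were taken from further lists. Of 13 other G2/M genes at 5 CPM or more, 7 were at least 1.5-fold higher after carboplatin under saline and 5 under AngII/PE, where 2.7% and 0.983% of all genes were, led in both by the kinetochore scaffold Knl1 (2.75-fold, 2.23 to 3.40, and 1.75-fold, 1.48 to 2.08). Of 18 other S genes, 1 was in each. Of 6 G1 cyclins and their kinases 0 passed 1.5-fold in either carboplatin comparison, a count near these shares of all genes, and their medians were -0.06 and 0.12. Among inhibitors of the cyclin-dependent kinases, Cdkn1c was at 20.3, 11.6, 7.03 and 7.54 CPM, 0.571-fold after carboplatin under saline (0.502 to 0.649) and the only one of 6 beyond 1.5-fold there. Cdkn1a, the inhibitor induced by p53, was at 252, 220, 225 and 249 CPM.

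Between pumps, 1 of the 6 G1 genes was at least 1.5-fold higher and 2 lower after PBS, and 1 higher and 1 lower after carboplatin, where 9.25% to 9.73% of all genes were in each direction. The D cyclins open the cycle in response to growth signals. Ccnd2 was at 124, 111, 42.3 and 51.6 CPM, 0.342-fold (0.324 to 0.362) under AngII/PE after PBS and 0.466-fold (0.444 to 0.489) after carboplatin. Ccnd1 was also lower (203, 200, 104 and 145 CPM), and Ccnd3 higher (251, 230, 420 and 353 CPM). Cdkn2a, which encodes the inhibitor p16 and the p53 activator Arf, was at 16.9, 12.6, 2.08 and 3.05 CPM, 0.123-fold (0.0969 to 0.155) after PBS and 0.242-fold (0.203 to 0.288) after carboplatin. Of 8 genes of E2F and pocket proteins at 5 CPM or more, 2 were at least 1.5-fold higher and 0 lower after PBS. After carboplatin 1 was higher and 1 lower. The median log2 ratio after PBS was 0.09, from -0.46 for Rb1 to 1.52 for E2f2. E2f2, an activating E2F, was at 3.18, 5.77, 9.11 and 8.18 CPM, 2.87-fold higher under AngII/PE after PBS (2.33 to 3.55). Its ratio after carboplatin was below 1.5-fold.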

How the data were processed

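The deposited tables, 1 per library, hold raw UMI counts per gene and barcode, not normalised. Per the file headers Cell Ranger 7.1.0 made them. Per the labels' protocols it was version 3, with mm10 transcripts as the reference. For Seurat, which the authors used, the labels' protocols give 3.2.3 and the submitters' processing notes 4. The sources used here do not say whether introns were counted. The labels' protocols name version 3.1 of the reagent kit and another version for the library steps, which was not resolved.

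Cells passed the submitters' stated limits: mitochondrial share under 10%, under 30000 UMIs, and more than 500 and under 7000 genes. This kept 17312 of 27968 barcodes. The submitters state a larger number of barcodes before filtering, and the difference was not resolved. Endothelial-like and fibroblast-like cells had 20 or more UMIs per 10000 over the markers of that class, fewer than 20 over those of the other class, and fewer than 10 C1q UMIs per 10000, limits set after the data were seen. No doublet caller was used. As an alternative, C1q cells with 10 or more UMIs per 10000 over the markers of another class were left out. Cells were called female from Xist UMIs and male from UMIs of Y-linked genes, with none of the other.

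UMIs were summed per library and class and divided by all UMIs of that class (CPM). Ratios carry exact conditional binomial 95% intervals and shares exact Clopper-Pearson ones. Shares used cells thinned at random to 4000 UMIs. For a count of 0 the limit is what 3 counts would give. PCR copies are removed by UMIs, so the intervals cover counting of molecules or cells only. Ratios were tested on simulated counts with 200 changed genes. Positions come from GENCODE M21, promoters from RefSeq.

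For each comparison and list, the 3 highest and 3 lowest ratios at a mean of 5 CPM or more were to be named, with 11 further members in all comparisons. Others are named by role, as described. The members and lists were chosen with earlier results of these data known. Alternatives covered the C1q, mitochondrial and upper limits, thinning, the number of members, sex, scaling and the 5 CPM filter. Computation used Python 3.11.15, numpy 2.4.6, scipy 1.17.1, pandas 2.3.3 and matplotlib 3.10.9. No column of values was left unused.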

Additional observations from a re-analysis of the deposited data

Results flagged for a closer look

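The sexes differed in the carboplatin comparison under saline. Over the 22 G2/M members counted, female-called cells had a median log2 ratio of -0.10 and male-called cells one of 1.79, so the medians have opposite signs. Cenpa, the centromere histone, was the member with folds beyond counting error in opposite directions there, 0.729 for female-called cells and 2.30 for male-called ones. Between pumps after PBS this held for Bub1b, a spindle checkpoint gene (0.666 and 2.09), and for Mki67 (0.586 and 2.19). Each of these comparisons includes the male-called cells of PBS + saline, of which 3 of 1088 had 5 or more G2/M members. These differences between the sexes were not tested.

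Barcodes above the upper limits on UMIs and genes were outside the comparisons. Among those that met the C1q rule, 213, 313, 157 and 371 in number, 11.3%, 10.9%, 12.1% and 19.4% had 5 or more S members and 9.39%, 10.9%, 14.0% and 22.1% had 5 or more G2/M members after thinning to 4000 UMIs. The carboplatin + AngII/PE values, 19.4% and 22.1%, lay above those of PBS + saline and drew attention for that reason. Markers of another class were present in 17.4%, 11.5%, 15.3% and 13.5% of these barcodes, and their part in the shares was not tested.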

How the results depend on the processing

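In C1q cells no ratio of a summed level or a share changed direction under the alternatives run. In endothelial-like cells the summed G2/M ratio for carboplatin under saline, 1.52, was 0.994 in female-called cells with sex called from 2 or more UMIs, and the summed S ratio, 1.13, was 0.975 in female-called cells. The cause of the movements below was not tested. For C1q cells, values outside the counting interval of the reported ones follow, with the comparisons of carboplatin under saline, carboplatin under AngII/PE, AngII/PE after PBS and AngII/PE after carboplatin called CS, CA, AP and AC. In female-called cells the summed G2/M ratio was 1.05 (CS), 1.18 (CA) and 1.11 (AP), the summed S ratio 1.13 (CS) and 1.04 (AP), the G2/M share ratio 1.54 (CS) and the S share ratio 1.22 (AP). In male-called cells the summed G2/M ratio was 2.36 (CS), 1.43 (CA) and 2.08 (AP), the summed S ratio 1.27 (CA) and 1.17 (AC), and the G2/M share ratio 12.0 (CS) and 6.85 (AP). With sex called from 2 or more UMIs, chosen after seeing the data, female-called cells gave 1.05, 1.19 and 1.11 for summed G2/M, 1.13 and 1.04 for summed S, 1.61 for the G2/M share and 1.21 for the S share in the same order. Male-called cells then gave 2.47 (CS), 1.48 (CA), 2.07 (AP) and 1.24 (AC) for summed G2/M, 1.28 (CA) and 1.20 (AC) for summed S, 13.7 (CS) and 7.42 (AP) for the G2/M share and 2.35 (AC) for the S share. Without the upper limits the summed G2/M ratios were 1.31, 1.47, 1.21 and 1.35 in CS, CA, AP and AC and the summed S ratios 1.30 (CA) and 1.02 (AP). With a mitochondrial limit of 20% the summed G2/M ratio was 1.33 (CA), 1.45 (AP) and 1.30 (AC), with a C1q limit of 20 it was 1.44 (AP), and with a limit of 5 it was 1.47 (CS) and 1.37 (AP). Without thinning the S share ratios were 1.28, 1.13, 1.30 and 1.14 in the same order and the G2/M share ratio 1.27 (CA). With 3 or more members the S share ratios were 1.27, 1.23, 1.11 and 1.08, and with 8 or more 5.12 (CS) and 3.55 (AP). Leaving out cells with markers of another class, scaling by the median ratio and thinning to 2000 or 8000 UMIs kept each ratio within its interval.

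With at least 1 CPM in place of 5, members at least 1.5-fold higher were 13 S and 28 G2/M in CS, 4 and 21 in CA, 12 and 20 in AP and 6 and 15 in AC, with the same counts without a filter. At that setting 1 S member, Exo1, was at least 1.5-fold lower in AC. At 2-fold and 5 CPM, members higher were 1 S and 4 G2/M in CS, 1 and 2 in CA, 1 and 1 in AP and 1 and 2 in AC, and the count of G2/M members lower in AC was 0. The share of all genes was not taken at any of these settings, so these counts have no background. No paired analysis was possible because each group is 1 library and the labels give no replicate numbers. Depth limits the 22 members under 5 CPM and the shares in endothelial-like and fibroblast-like cells.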
